A study of Mus musculus with 24 samples.

Results

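The comparison described here is the early day step in mouse kidney, ZT4 against ZT0, in the excision repair of cisplatin adducts. Zeitgeber time (ZT) counts hours from lights on, so ZT0 is the start of the light phase. The step rests on 4 kidney libraries of the 24 in the series, 2 at ZT4 and 2 at ZT0, chosen by the tissue and zeitgeber time in their labels. The other 8 kidney libraries, from ZT8 to ZT20, entered the fit as well. They shared in the filter, the scaling, the effect of the replicate number and the estimate of the spread between libraries. The liver libraries served for a test of the difference between tissues.

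All animals were wild type C57BL/6J females (the strain field reads C57BL/6), 6 months old, under a schedule of 12 h light and 12 h dark. The ZT4 and ZT0 mice both received 10 mg/kg cisplatin by intraperitoneal injection, and their tissue was taken at the stated time, 2 h after the injection. There was no untreated group, and nothing in the sample labels ties the paired libraries at ZT4 or ZT0 to different animals, so the p-values below measure the spread between libraries, which may be technical. Excised oligomers were collected with antibodies against subunits of the repair factor TFIIH. The design text names a second precipitation for cisplatin, whereas the extract protocol names antibodies against other lesions.

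XR-seq reads out the oligomers cut from damaged DNA during nucleotide excision repair, so each read marks a repaired site. On the transcribed strand (TS) of an active gene, an RNA polymerase stalled at an adduct recruits the repair machinery, and TS reads therefore follow how strongly a gene is being transcribed. On the non-transcribed strand (NTS) damage is found by global scanning of the genome, without a polymerase. The circadian clock is one of the systems that change transcription over the day: CLOCK or its paralogue NPAS2 pairs with BMAL1 (Arntl) at E-boxes to switch on the period, cryptochrome and Rev-erb genes, whose products then shut the activators off again. The PAR bZIP factors DBP, TEF and HLF carry the rhythm on to genes with D-boxes, and the REV-ERB and ROR receptors to genes with ROR elements.

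The ZT4 libraries held 6334958 and 15396879 TS reads (replicates 1 and 2), and the ZT0 libraries 13854028 and 15414791. The TS took 86.7% and 85.5% of genic reads at ZT4 and 86.7% and 84.8% at ZT0, a difference of 0.318 percentage points that was smaller than the spread between replicates (exact permutation test, two-sided, p = 1; 2 against 2 libraries cannot go below 0.333). Genes over 100 kb held 28.0% and 28.8% of TS reads at ZT4, and 32.6% and 28.9% at ZT0, so replicate 1 of ZT0 stood apart from the other 3 libraries. Over all kidney libraries the share ran from 27.4% to 32.6%, and the ZT16 and ZT20 libraries held 30.1% to 31.5%. Markers of the proximal tubule had a median of 2.02 to 2.37 TS reads per kb and 1000000 reads in these 4 libraries, against 0.05 to 0.16 in liver at the same times, and hepatocyte markers 0.25 to 0.38 in kidney, against 2.58 to 3.71 in liver. The libraries carried the markers of their labelled tissue.

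Of 19207 genes tested on the TS, 13 changed between ZT4 and ZT0, which is 0.0677% of those tested (edgeR's quasi-likelihood test with the replicate number as a block, Benjamini-Hochberg adjusted p under 0.05). The 7 genes that rose (0.0364%) were the clock output genes Dbp and Per3, the glucocorticoid-responsive gene Zbtb16, and Hif3a, Sult1b1, Mdga2 and Armc12. The 6 that fell (0.0312%) were the clock activator Npas2 and Insc, Lhfpl2, Igsf9b, Tmem178 and 4933424G05Rik. The absolute log2 changes ran between 0.49 (Tmem178) and 1.58 (Armc12). In all 13 genes the ZT4 and ZT0 libraries did not overlap, which was so for 30.9% of all genes tested, and both replicate pairs moved the same way. Before adjustment 2404 genes, or 12.5%, had p under 0.05.

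**Figure D1:**
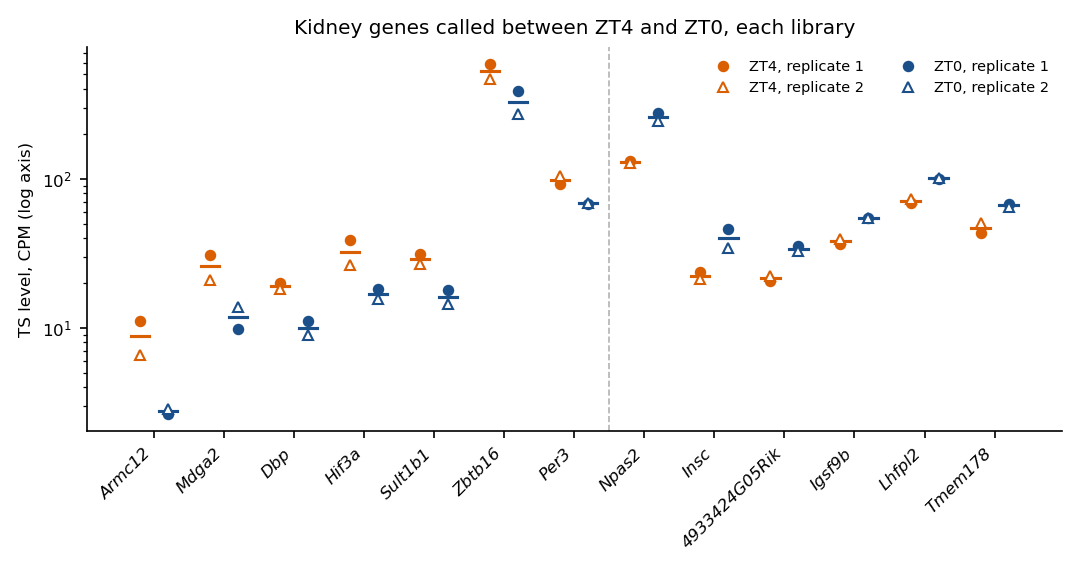
TS level in CPM (reads per 1000000 TS reads, log axis) of the 13 genes called between ZT4 (orange, left of each pair) and ZT0 (blue, right), with a point per library (circles replicate 1, triangles replicate 2) and a bar at the mean of the 2 libraries. The 7 genes left of the dashed line have both ZT4 points above both ZT0 points, and the 6 to its right have both below.

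The count of called genes depends on the pairing and on single libraries. Without the replicate block 1 gene passed, Npas2. The count fell when replicate 1 or 2 of ZT4 or replicate 1 of ZT0 was left out. It rose far above the main count when replicate 2 of ZT0 was left out. In each of these fits 1 of the times rests on a single library, and the cause of the moves was not tested. With replicate 1 of ZT0 left out, the genes that passed were only in part those named above. Npas2 was called under all 16 alternatives to the settings used, Zbtb16 under 15 and Sult1b1 under 14. The calls lost most often were those of Tmem178 (called under 7 of 16), 4933424G05Rik (7 of 14), Igsf9b (8 of 14) and Lhfpl2 (10 of 16).

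The promoters of the called clock genes, and of the next called gene by p-value with an entry in the sequence table, are shown so that the sequence at the start of these genes can be read beside their values. Each sequence runs from 250 bases before to 50 bases after the start site, 5′ to 3′ on the gene's strand, from RefSeq GRCm38.p6 (the release behind mm10): chr1:39194022-39194321 on the plus strand for Npas2, chr4:151044616-151044915 on the minus strand for Per3, chr7:45704997-45705296 on the plus strand for Dbp and chr5:87538146-87538445 on the minus strand for Sult1b1. Capitals mark the matches to 5 motifs searched on both strands: the E-box CACGTG, the D-box TTATGTAA or TTACGTAA, the ROR element ANTAGGTCA, the cAMP response element TGACGTCA and the paired heat shock unit GAANNTTC.
Npas2: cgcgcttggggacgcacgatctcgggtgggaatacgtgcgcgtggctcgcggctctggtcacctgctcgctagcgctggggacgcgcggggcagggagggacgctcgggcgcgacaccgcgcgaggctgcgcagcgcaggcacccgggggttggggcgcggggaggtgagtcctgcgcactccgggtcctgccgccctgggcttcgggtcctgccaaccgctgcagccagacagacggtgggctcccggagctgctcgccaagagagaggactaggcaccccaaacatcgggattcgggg
Per3: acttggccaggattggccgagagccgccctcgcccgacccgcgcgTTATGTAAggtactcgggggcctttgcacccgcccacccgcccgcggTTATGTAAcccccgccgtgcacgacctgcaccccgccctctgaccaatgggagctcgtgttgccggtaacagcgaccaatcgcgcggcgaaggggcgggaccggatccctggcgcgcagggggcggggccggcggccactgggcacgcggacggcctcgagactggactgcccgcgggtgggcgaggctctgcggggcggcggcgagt
Dbp: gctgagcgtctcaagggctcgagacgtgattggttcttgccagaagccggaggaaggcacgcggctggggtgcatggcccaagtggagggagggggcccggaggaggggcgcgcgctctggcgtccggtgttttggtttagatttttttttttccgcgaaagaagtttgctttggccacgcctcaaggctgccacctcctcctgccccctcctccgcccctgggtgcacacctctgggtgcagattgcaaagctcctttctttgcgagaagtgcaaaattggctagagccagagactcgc
Sult1b1: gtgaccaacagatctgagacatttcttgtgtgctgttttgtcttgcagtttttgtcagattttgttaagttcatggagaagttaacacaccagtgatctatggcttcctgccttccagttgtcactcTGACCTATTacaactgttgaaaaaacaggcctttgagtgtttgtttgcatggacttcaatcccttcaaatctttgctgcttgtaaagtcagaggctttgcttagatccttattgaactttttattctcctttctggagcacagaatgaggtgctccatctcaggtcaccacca

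Per3 held 2 D-boxes, beginning at positions -205 and -158 from its start site. Of 32851 RefSeq mouse promoters of this length, 1.06% held a D-box. Sult1b1 held a ROR element, on the opposite strand, at position -123 from its start site, and 0.661% of promoters held one. Those of Npas2 and Dbp, and the windows of Insc and Hif3a that were searched as well, held none of the 5 motifs, which says only that these letters are not in 300 bases. The E-box was in 7.15%, the cAMP response element in 1.79% and the heat shock pair in 7.86% of all promoters. No overlap between motifs occurred in the windows searched. Zbtb16 and Armc12 had no entry.

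Npas2 gave the smallest p-value of the step. It encodes the paralogue of CLOCK that pairs with BMAL1, and its entry covers chr1:39194272-39363240 (mm10). It had 131 and 127 CPM on the TS in the ZT4 libraries, against 275 and 245 in the ZT0 libraries (CPM, reads per 1000000 TS reads on the TMM scale of edgeR). Both ZT4 libraries were near the same level and well under both ZT0 libraries, and the fitted fall was to a level 2.02-fold lower at ZT4 (log2 change -1.02 ± 0.10 (SE), adjusted p = 0.000126). Over the day its means were 260, 129, 36.0, 34.6, 80.7 and 262 CPM at ZT0, ZT4, ZT8, ZT12, ZT16 and ZT20, a 7.57-fold range in which ZT4 lay between the high means of ZT20 and ZT0 and the low ones of ZT8 and ZT12.

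The other members of the activator list did not pass. Arntl, the obligate partner of CLOCK and NPAS2, had 320 and 277 CPM at ZT4 and 381 and 369 at ZT0 (log2 change -0.34 ± 0.12, adjusted p = 0.281). Cry1, a repressor that peaks with the activators, had 49.5 and 58.7 at ZT4 and 62.2 and 104 at ZT0 (-0.60 ± 0.14, adjusted p = 0.157). In both genes the ZT4 libraries lay under the ZT0 libraries, and the gap in Cry1 was narrow for replicate 1 of ZT0. Clock (-0.03), Nfil3, a D-box repressor (-0.04), and the ROR receptor gene Rora (-0.10) had overlapping libraries. None of the 7 members of this list had a log2 change above 0, their median was -0.10 against -0.01 for all genes tested, and 3 of the 7 had both ZT4 libraries below both ZT0 libraries, against 16.0% of all genes. Since the list was put together by phase, the shared sign is a description, not a test. The means of Arntl were 375, 298 and 93.6 at ZT0, ZT4 and ZT8.

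Dbp and Per3 were the called members among the repressors and the targets of E-boxes and D-boxes. Dbp, whose product activates D-box genes, covers chr7:45705247-45710203. It had 20.1 and 18.2 CPM on the TS at ZT4, against 11.1 and 9.01 at ZT0, with each ZT4 library clear of both ZT0 libraries (log2 change 0.93 ± 0.14, adjusted p = 0.0118). Its entry overlaps that of Sphk2 on the opposite strand. Per3, a period family member, covers chr4:151003655-151044665 and had 92.7 and 104 at ZT4, against 68.0 and 68.6 at ZT0 (0.53 ± 0.07, adjusted p = 0.00613). The ZT0 libraries of Per3 were nearly identical, and the rise was larger than the distance between the ZT4 libraries. Both genes were at their lowest mean of the 6 times at ZT0 and at their highest later in the day, Dbp with 39.0 at ZT8 and Per3 with 141 at ZT12.

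All 13 members of this list had a log2 change above 0, against 9197 of 19207 genes tested, with a median of 0.25 in the fit, 0.30 in the replicate 1 pair and 0.31 in the replicate 2 pair. The clock lists group genes by phase, with the repressor Cry1 placed among the activators, and were chosen with earlier results of these data known. A shared sign within them is therefore a description, not a test. In 10 of the 13 both ZT4 libraries were above both ZT0 libraries, against 15.0% of all genes. Members that did not pass included Ciart, a repressor of the clock activators, with 8.74 and 10.9 CPM at ZT4 and 4.29 and 6.20 at ZT0 (0.91 ± 0.17, adjusted p = 0.0658). Tef, a PAR bZIP factor, had 99.6 and 91.2 at ZT4 and 80.9 and 59.5 at ZT0 (0.45, adjusted p = 0.108), and Nr1d1, which encodes REV-ERB alpha, had 88.7 and 76.9 at ZT4 and 68.3 and 52.8 at ZT0 (0.45, adjusted p = 0.173). Per2 had 209 and 207 at ZT4 and 147 and 176 at ZT0 (0.36, adjusted p = 0.155). Per1, Nr1d2, Usp2 and Cry2 had log2 changes of 0.25, 0.23, 0.23 and 0.21 with separate groups, and Hlf (0.07), Bhlhe40 (0.02) and Bhlhe41 (0.01) had overlapping libraries. The last 2 changed sign under other settings, as did Clock, Nfil3 and Rora.

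**Figure D2:**
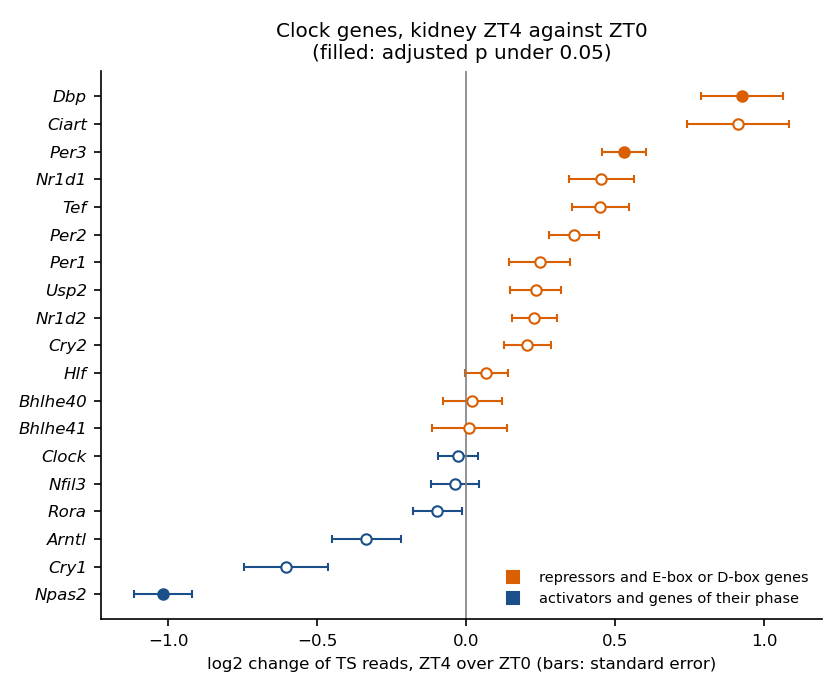
Fitted log2 change of TS reads, ZT4 over ZT0, with its standard error for 19 clock genes, the repressors with the E-box and D-box targets in orange and the activators and genes of their phase in blue. Filled points passed the test: Dbp and Per3 on the right and Npas2 on the left.

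Zbtb16 had the second smallest p-value of the step. It encodes a transcription factor of the BTB zinc finger family and is a known target of the glucocorticoid receptor; its entry covers chr9:48654297-48835945. It had 584 and 467 CPM on the TS at ZT4, against 386 and 272 at ZT0, so within each time replicate 1 was the higher library and the rise was seen within each replicate pair (log2 change 0.68 ± 0.07, adjusted p = 0.000413). It was the 1 called member of 17 tested genes in the list of the glucocorticoid receptor and its targets, against 0.0677% of all genes tested. The median of this list was 0.06. By edgeR's quasi-likelihood test 5 of the 17 had unadjusted p under 0.05, against 12.5% of all genes. In 6 of them both ZT4 libraries were above both ZT0 libraries, against 15.0% of all genes, and in 1 both were below, against 16.0%. Fkbp5, a co-chaperone of the receptor and a target of it, had 246 and 245 at ZT4 and 227 and 200.1 at ZT0 (0.20, adjusted p = 0.267), and Sgk1, a kinase that promotes sodium uptake, had 46.0 and 52.4 at ZT4 and 42.2 and 44.7 at ZT0 (0.18, adjusted p = 0.404). Other members had values in the other direction. Nr3c2, the mineralocorticoid receptor gene, had 177 and 193 at ZT4 and 301 and 190.4 at ZT0 (-0.39, adjusted p = 0.265), so its libraries overlapped. Hsd11b2, which encodes the enzyme that inactivates glucocorticoids, had 6.43 and 5.92 at ZT4 and 6.87 and 8.95 at ZT0 (-0.43, adjusted p = 0.388).

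Hif3a and Sult1b1 also rose. Hif3a encodes an alpha subunit of the hypoxia-inducible factors and covers chr7:17030993-17062427. It had 38.6 and 26.4 CPM on the TS at ZT4, against 18.3 and 15.6 at ZT0 (log2 change 0.90 ± 0.14, adjusted p = 0.0178), and the ZT4 libraries differed from each other by more than the ZT0 libraries did. Sult1b1, a cytosolic sulfotransferase, covers chr5:87513339-87538195 and had 31.5 and 26.7 at ZT4, against 18.02 and 14.4 at ZT0 (0.86 ± 0.11, adjusted p = 0.00405). Its mean at ZT4, 29.1, was near the highest of the day, 30.04 at ZT12.

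The 2 largest increases were in Armc12 and Mdga2. Armc12, an armadillo repeat gene needed for sperm mitochondria in mice, covers chr17:28530861-28538975. It had 11.2 and 6.57 CPM on the TS at ZT4, from 68 and 101 reads, against 2.65 and 2.87 at ZT0, from 34 and 44 reads (log2 change 1.58 ± 0.24, adjusted p = 0.0118). The size is less certain than the direction, since the ZT4 libraries differed widely: the replicate 1 pair gave 1.89 and the replicate 2 pair 1.07. Mdga2, an immunoglobulin superfamily protein that regulates synapses, covers chr12:66466059-67222549 and had 30.8 and 21.0 at ZT4, against 9.83 and 13.8 at ZT0 (1.06 ± 0.17, adjusted p = 0.0191). Here too the pairs differed, 1.60 for replicate 1 and 0.59 for replicate 2. Both genes, with Zbtb16, had their highest mean of the 6 times at ZT4.

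Among the genes that fell, Insc came after Npas2 in size. It encodes the adaptor inscuteable, which orients the mitotic spindle, and covers chr7:114745766-114850380. It had 23.6 and 21.2 CPM on the TS at ZT4, against 45.9 and 34.2 at ZT0, the lower ZT0 library still well above both ZT4 libraries (log2 change -0.83 ± 0.13, adjusted p = 0.0178). Its means over the 6 times, 40.0, 22.4, 16.1, 20.4, 37.1 and 42.1 CPM at ZT0 to ZT20, were highest at ZT20 and lowest at ZT8.

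The other decreases were smaller and tight within each time, and each lost its call under several alternative settings. Lhfpl2, a tetraspan membrane protein gene (chr13:94057796-94195409), had 68.6 and 73.3 CPM on the TS at ZT4, against 99.3 and 102 at ZT0 (-0.51 ± 0.08, adjusted p = 0.0178). Igsf9b, a cell adhesion gene of the immunoglobulin superfamily (chr9:27299228-27334763), had 36.6 and 39.6 at ZT4, against 54.8 and 54.5 at ZT0 (-0.52 ± 0.09, adjusted p = 0.0261), and its entry overlaps another on the same strand. Tmem178, which in mouse osteoclasts limits calcium release, covers chr17:80944632-81001816 and had 43.5 and 50.2 at ZT4, against 67.7 and 64.8 at ZT0 (-0.49 ± 0.09, adjusted p = 0.0437). For these 3 genes the distance between the times exceeded the spread within either time. 4933424G05Rik, a long noncoding RNA gene by its RefSeq type, had 20.8 and 22.3 at ZT4, against 35.2 and 32.9 at ZT0 (-0.66 ± 0.12, adjusted p = 0.0386), and its entry overlaps Kctd1 on the opposite strand.

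The other kidney times place the step within the day. ZT0 was the lowest mean of the 6 times for 5 of the 7 genes that rose, and ZT20 for the other 2, Hif3a and Zbtb16. The highest mean fell at ZT4 for 3, at ZT8 for Dbp and at ZT12 for 3. Of the 6 genes that fell, 3 had their highest mean at ZT0 (Lhfpl2, Igsf9b and 4933424G05Rik), 2 at ZT20 (Npas2 and Insc) and Tmem178 at ZT16. These orders are descriptions, since the ZT4 and ZT0 libraries that chose the genes are among the values ranked.

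**Figure D3:**
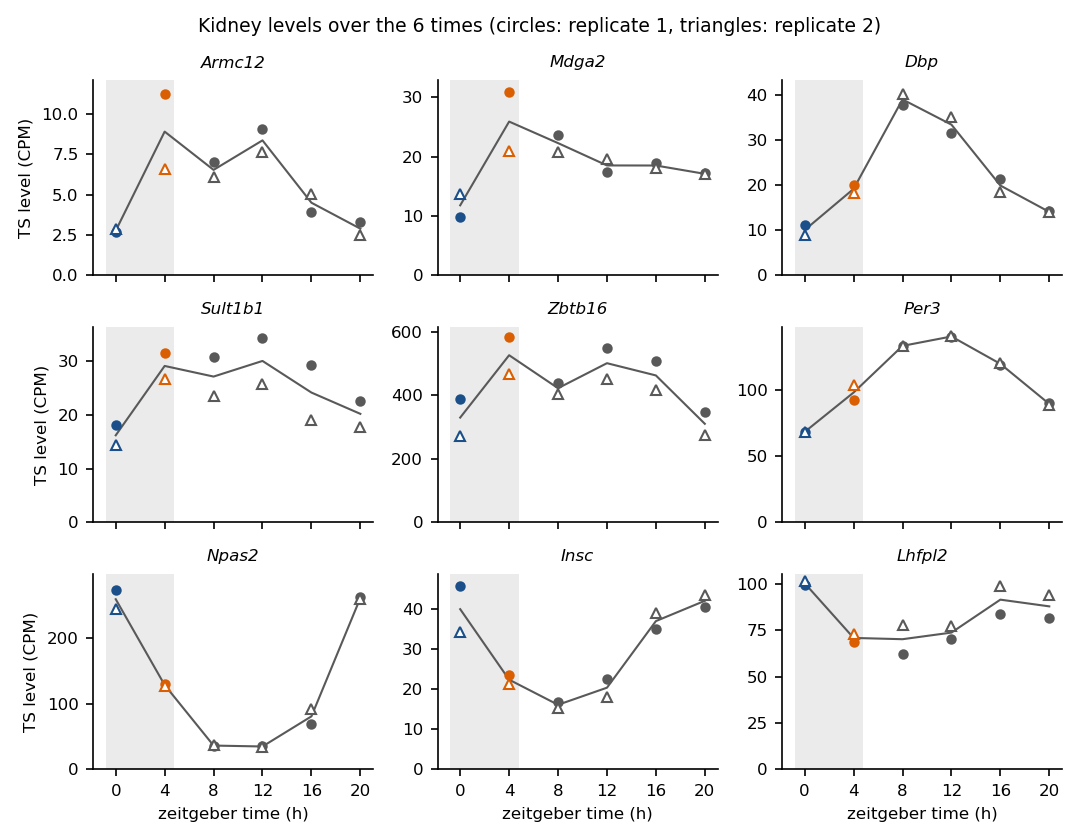
TS level in CPM in every kidney library (circles replicate 1, triangles replicate 2) and their means (lines) at ZT0 to ZT20 for 9 of the 13 called genes, with the ZT0 and ZT4 times shaded. Dbp and Per3 have their highest means, 39.0 and 141 CPM, after ZT4, Npas2 and Insc their lowest, 34.6 and 16.1, and Armc12, Mdga2 and Zbtb16 have their highest mean at ZT4.

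Genes next in order did not pass. On the side of higher ZT4 levels these were Ciart, Napsa, Mfrp, Map3k6 and Cyp2a5, with adjusted p between 0.0658 and 0.0801. Napsa, an aspartic protease of the proximal tubule and lung, had 34.3 and 27.1 CPM on the TS at ZT4 and 23.2 and 16.9 at ZT0 (log2 change 0.62). Cyp2a5 (0.90) belongs to a cluster of near-identical cytochrome P450 genes whose reads may be split in counting, so its value is uncertain. On the other side were Sema3c, a secreted guidance protein gene (-0.49, adjusted p = 0.0602), Elfn1 (-0.46), the growth factor gene Nrg1 (-0.56), Shtn1 (-0.45) and the sodium-calcium exchanger gene Slc8a1 (-0.51).

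No gene of the repair pathway itself passed the test. Of 31 tested genes of nucleotide excision repair none was called, and 16 were above 0 (51.6%, against 47.9% of all genes tested). Their median was 0.01, with Rpa3, a subunit of replication protein A, lowest at -0.35. Nor was any of 24 p53 targets called (median 0.04). Cdkn1a, the cell cycle inhibitor p21, had 72.5 and 59.3 CPM at ZT4 and 54.5 and 59.2 at ZT0 (0.19, adjusted p = 0.439). The 20 immediate early genes had a median of 0.07, with Egr1 at 0.37 (adjusted p = 0.289), and the 16 heat shock and cold-inducible genes a median of -0.04. For 23 genes of platinum transport and thiol defence the median was 0.04, and the copper and platinum transporter gene Slc31a1 had 90.3 and 89.0 at ZT4 and 76.0 and 84.8 at ZT0 (0.16, adjusted p = 0.414). With none called in these 5 lists by edgeR's quasi-likelihood test, and none by DESeq2, their members with unadjusted p under 0.05 numbered 1, 1, 3, 2 and 4 in the order given. As shares these were 3.2%, 4.2%, 15%, 12.5% and 17.4%, against 12.5% of all genes tested.

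Of the 24 genes of fasting and PPAR alpha, 22 had a log2 change above 0, against 47.9% of all genes tested. None was called by edgeR's quasi-likelihood test or by DESeq2. By the edgeR test 8 of the 24 had unadjusted p under 0.05, against 12.5% of all genes. The median of the 24 was 0.16, and in 12 of them both ZT4 libraries were above both ZT0 libraries, against 15.0% of all genes. Pck1, the first committed enzyme of gluconeogenesis, had 33.5 and 30.3 CPM at ZT4 and 24.03 and 24.4 at ZT0 (0.38, adjusted p = 0.191). Angptl4, a secreted inhibitor of lipoprotein lipase, had 30.5 and 31.8 at ZT4 and 18.3 and 21.7 at ZT0 (0.63, adjusted p = 0.214). The median of 17 fatty acid synthesis genes was 0.02, with Acaca, the rate-limiting enzyme, at -0.39. Acaca had 72.9 and 79.0 CPM at ZT4 and 124 and 82.3 at ZT0 (adjusted p = 0.221 by edgeR's quasi-likelihood test). Its pairs differed, at -0.76 for replicate 1 and -0.06 for replicate 2. The median of 22 cholesterol synthesis genes was -0.01. Neither list had a call by either tool (4 and 1 members with unadjusted p under 0.05 by the edgeR test).

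Markers of the nephron segments differed in the sign of their medians, without any call by edgeR's quasi-likelihood test (6, 7 and 4 with unadjusted p under 0.05 in the 3 lists below). DESeq2 called 0, 1 and 1 in these lists, against 28 of 19207 genes tested. By edgeR's quasi-likelihood test 12.5% of all genes tested had unadjusted p under 0.05, and 47.9% had a log2 change above 0. Of 18 proximal tubule genes 15 were above 0, with a median of 0.17. The phosphate transporter gene Slc34a1 had 61.5 and 53.3 CPM at ZT4 and 42.5 and 47.4 at ZT0 (0.33, adjusted p = 0.221). Of 18 genes of the loop and distal tubule only 2 were above 0, with a median of -0.20, and in 7 both ZT4 libraries were below both ZT0 libraries, against 16.0% of all genes. Kcnj1, the potassium channel ROMK, had 35.8 and 42.7 at ZT4 and 51.2 and 50.2 at ZT0 (-0.36, adjusted p = 0.198). Of 16 collecting duct and intercalated cell genes 3 were above 0, and the median was -0.20. Of the 3 subunits of the epithelial sodium channel in this list, Scnn1g had 17.97 and 20.7 at ZT4 and 29.6 and 28.6 at ZT0 (-0.59, adjusted p = 0.0801), and Scnn1b 36.4 and 40.7 at ZT4 and 57.9 and 53.2 at ZT0 (-0.53, adjusted p = 0.0801). Scnn1a had overlapping libraries, with 85.9 and 76.6 at ZT4 and 84.9 and 74.8 at ZT0 (0.02, adjusted p = 0.967).

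The medians had the same sign in each replicate pair, 0.23 and 0.12 for the proximal tubule, -0.24 and -0.09 for the loop and distal tubule and -0.22 and -0.10 for the collecting duct (replicates 1 and 2). In tissue libraries a smaller share of cells of a type and less repair per cell cannot be told apart. The median level of the collecting duct genes was 0.39 and 0.60 TS reads per kb and 1000000 reads at ZT4, against 0.63 and 0.69 at ZT0, and that of the proximal tubule genes 2.37 and 2.17 at ZT4, against 2.04 and 2.02 at ZT0. None of these markers was at 0 reads in the 4 libraries. The part of tissue composition in the 13 calls was not tested.

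Among other cell types the medians were 0.29 for 6 podocyte genes, 0.09 for 15 endothelial genes, 0.22 for 10 mesenchymal genes and 0.22 for 13 immune genes. The replicate pairs differed in sign for the mesenchymal genes (-0.09 in the replicate 1 pair and 0.24 in the replicate 2 pair) and the immune genes (-0.01 and 0.19). Immune markers were low, with medians of 0.07 and 0.10 TS reads per kb and 1000000 reads at ZT4 and 0.06 and 0.11 at ZT0. The 14 kidney injury genes had a median of -0.07 (-0.16 and 0.04 in the pairs) and the 13 hepatocyte genes 0.06 (-0.09 and 0.10). No member of these 6 lists was called by edgeR's quasi-likelihood test or by DESeq2 (3, 3, 1, 0, 3 and 3 with unadjusted p under 0.05, in the order given). The share with unadjusted p under 0.05 over all genes tested was 12.5%.

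**Figure D4:**
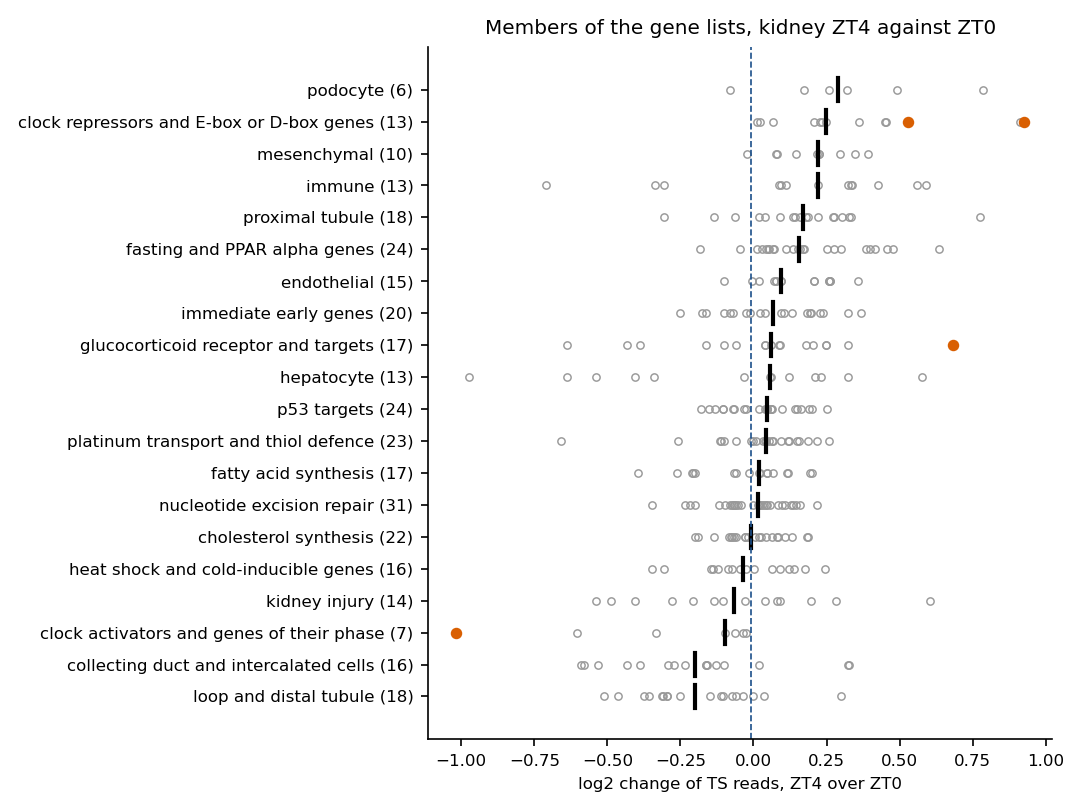
Log2 change of TS reads, ZT4 over ZT0, for each tested member of the 20 gene lists (open circles; called members filled), with the median of each list as a black bar, the number tested in brackets and the median of all genes as a dashed line. Calls are confined to the 2 clock lists and the glucocorticoid list, and the loop and collecting duct lists have the lowest medians, both -0.20.

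On the NTS 25 of 18866 genes tested changed, or 0.133%, and none of them was called on the TS (edgeR's quasi-likelihood test with the replicate block; 0 without it). Of these, 23 rose (0.122%) and 2 fell (0.0106%), and in 22 the libraries of the 2 times did not overlap, against 31.0% of all genes tested on the NTS. Leaving out replicate 2 of ZT0 took the count to 135, and leaving out replicate 1 or 2 of ZT4 took it to 4 or 6. Of the called genes 9 overlap an entry on the opposite strand, against 17.2% of all genes tested.

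Reads on the NTS of one gene can be TS reads of its neighbour, and the called genes are given with that neighbour. Sytl1, a Rab27 effector gene, had 61.5 and 80.4 CPM on the NTS at ZT4, against 26.0 and 40.7 at ZT0 (log2 change 1.09 ± 0.17, adjusted p = 0.000251). It ends 0.161 kb from Map3k6 on the other strand, whose TS log2 change was 0.48 (adjusted p = 0.0801). Thra, the thyroid hormone receptor alpha gene, overlaps Nr1d1 and had an NTS log2 change of 0.62 (adjusted p = 0.00179), beside 0.45 on the TS of Nr1d1. C920021L13Rik overlaps Ciart and had 0.66 (adjusted p = 0.022), beside 0.91 on the TS of Ciart. In these 3 pairs the neighbour's TS change had the same sign, and its part in the NTS value was not tested.

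The other leading genes were C2cd3, Klf13 and Cdr2. C2cd3, a centriole gene, had 249 and 244 CPM on the NTS at ZT4, against 149 and 159 at ZT0 (0.67 ± 0.11, adjusted p = 0.000251), while Ppme1, 0.336 kb away, had a TS log2 change of 0.03. Klf13, a Krüppel-like transcription factor gene, had 355 and 314 at ZT4, against 228 and 208 at ZT0 (0.61 ± 0.10, adjusted p = 0.000251), and overlaps E030018B13Rik, at 0.49 on the TS (adjusted p = 0.442). Cdr2 had 109 and 127 at ZT4, against 60.4 and 77.9 at ZT0 (0.78 ± 0.14, adjusted p = 0.00172), and lies 0.196 kb from 4933427G17Rik, at 0.43 on the TS (adjusted p = 0.238). Each of the 3 had both ZT4 libraries above both ZT0 libraries. The 2 genes that fell were Slc8a1 (-0.57, adjusted p = 0.0199) and 5730422E09Rik (-0.48, adjusted p = 0.0493). Slc8a1 had 124 and 133 CPM on the NTS at ZT4, against 144 and 231 at ZT0, so replicate 1 of ZT0 lay near the ZT4 libraries. Its TS log2 change of -0.51 did not pass (adjusted p = 0.0801 by edgeR's quasi-likelihood test). Under 5 alternatives the NTS log2 change ran from -0.78 to -0.26 for Slc8a1 and from -0.65 to -0.32 for 5730422E09Rik.

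The ratio of TS to NTS reads changed in 12 of 19688 genes tested, or 0.0610%, with 6 higher and 6 lower at ZT4, 0.0305% each way (edgeR's quasi-likelihood test of the interaction of strand and time, with the replicate block; 0 without it). Leaving out replicate 2 of ZT0 gave 239 genes, replicate 1 of ZT0 19, and replicates 1 and 2 of ZT4 0 and 3. Mdga2 was the 1 gene also called on the TS: its ratio was 2.97 and 1.71 at ZT4, against 0.875 and 1.09 at ZT0 (log2 change 1.08 ± 0.21, adjusted p = 0.0127), with an NTS log2 change of 0.05. Nr1d1 had 6.11 and 5.42 TS reads per NTS read at ZT4, against 3.12 and 3.28 at ZT0 (0.83 ± 0.16, adjusted p = 0.0127), and Ciart 0.654 and 0.977 at ZT4, against 0.293 and 0.503 at ZT0 (1.09 ± 0.23, adjusted p = 0.0374). Both clock repressors overlap a gene on the other strand, so each strand holds reads of 2 genes, and in both the ratios of the 2 times were separate.

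Of the 6 lower ratios, 4 belong to genes called on the NTS (Sytl1, C2cd3, Tbcb and Tsix) and 2 do not. Plppr1, a phospholipid phosphatase related gene, had a ratio of 0.462 and 0.806 at ZT4, against 1.57 and 1.10 at ZT0 (-1.02 ± 0.17, adjusted p = 0.00756), and Ccdc149 1.27 and 1.42 at ZT4, against 2.26 and 2.09 at ZT0 (-0.67 ± 0.14, adjusted p = 0.0324). For the 13 genes called on the TS, 6 of the 7 that rose had an NTS log2 change above 0 and 5 of the 6 that fell had one below 0, but none passed. The nearest were Zbtb16 (0.38, adjusted p = 0.067) and Hif3a (0.58, adjusted p = 0.0817).

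Whether the step differs between kidney and liver was tested as an interaction of tissue and time, and no gene of 19625 passed (edgeR's quasi-likelihood test; smallest adjusted p = 0.327; 1015 genes with unadjusted p under 0.05). The comparison is no evidence that the tissues act alike. Npas2 had a log2 change of -0.73 ± 0.14 in liver (adjusted p = 0.0733). Its liver CPM on the TS, given without the TMM scale, were 274 and 291 at ZT4 and 427 and 485 at ZT0. Dbp had 0.68 in liver (adjusted p = 0.433) and Zbtb16 0.40 (adjusted p = 0.198). Of the 13 kidney genes 8 had the same sign in liver, 6 of the 7 that rose and 2 of the 6 that fell (Npas2 and Lhfpl2), and none was called in liver. The smallest p-value of this test was that of Mdga2, at 2.11 ± 0.36 (kidney 1.10, liver -1.01; adjusted p = 0.327), whose liver libraries had 10.5 and 10.2 at ZT4 and 29.1 and 13.4 at ZT0, so that 1 liver library at ZT0 stood above the other 3.

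The size of the step differed by gene length, mainly in 1 replicate pair. The median log2 change was 0.03 for 5516 genes under 10 kb, 0.02 for 6274 genes of 10 to 30 kb, -0.02 for 5062 genes of 30 to 100 kb and -0.13 for 2354 genes over 100 kb. Long minus short genes gave -0.164 in the fit, -0.317 in the replicate 1 pair and -0.016 in the replicate 2 pair. Without replicate 1 of ZT0 it was -0.073, without replicate 1 of ZT4 -0.078 and without replicate 2 of ZT4 -0.274. The replicate 1 pair holds the ZT0 library with 32.6% of its reads in genes over 100 kb. A trend with length between replicates was not confined to ZT0. The Spearman correlation with length of replicate 1 over replicate 2 was 0.187 at ZT0. It was -0.037 at ZT4, 0.021 at ZT8, 0.348 at ZT12, 0.219 at ZT16 and 0.133 at ZT20. Across genes, the Spearman correlation of the change with length was -0.203 in the fit, -0.246 in the replicate 1 pair and -0.045 in the replicate 2 pair, as a description in which genes are not independent replicates and share the libraries. Called genes that rose had a median length of 31.4 kb and those that fell 81.8 kb, against 20.9 kb for all genes tested, and the same 13 genes were called once the trend with length was removed.

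**Figure D5:**
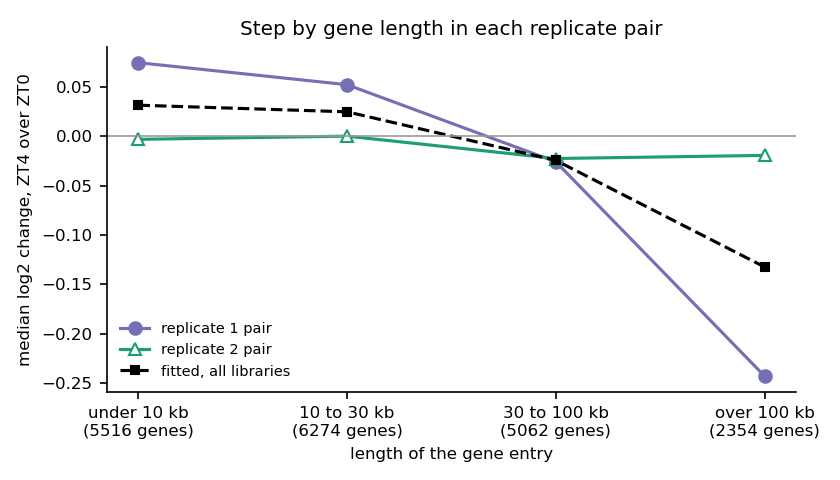
Median log2 change of TS reads, ZT4 over ZT0, by class of gene length, for the replicate 1 pair (circles), the replicate 2 pair (open triangles) and the fit (dashed, squares). The replicate 1 pair falls to -0.24 in genes over 100 kb, whereas the replicate 2 pair stays between -0.02 and 0.00 in every class.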

How the data were processed

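The authors deposited read counts and RPKM values per gene and strand, in 16 tables with a row per gene and time. Reads were mapped to mm10 per the submitters' processing notes; the aligner and read counter: not given in the sources used here. Counts were analysed, and RPKM (the authors' values scaled by gene length and depth) was checked as a unit but not used. Entries with 1 symbol (24203 of 25239) were kept; 154 name several and 882 none, and entries without a single symbol took 2.93% to 2.98% of TS reads in the 4 libraries. Of these symbols 23204 are in RefSeq, 24118 with synonyms. Starts in the tables count from 0, and coordinates are printed from 1.

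Counts were filtered with filterByExpr and scaled with TMM in edgeR 4.0.16 (limma 3.58.1, R 4.3.3). The quasi-likelihood test used 1 mean per time and the replicate number as a block, with dispersion from all 12 kidney libraries, Benjamini-Hochberg adjustment and a threshold of 0.05. NTS counts were tested likewise, and the strand ratio and the tissue difference as interactions. The replicate numbers come from the samples' labels; same-numbered kidney libraries deviated together from their time means in all 15 pairs of times (correlation 0.137 to 0.515 over 16749 genes, 0.339 for ZT4 with ZT0). The chi-square statistic per degree of freedom between replicates was 3.40 for ZT4 and 14.8 for ZT0, above sampling noise, so the libraries of a time were not copies of each other. The Pearson correlation of log2 CPM, here without TMM factors, was 0.987 between the ZT0 libraries and 0.992 between the ZT4 libraries. Across the times it was 0.996 for replicate 2 of ZT0 with replicate 2 of ZT4, and 0.988 for replicate 1 with replicate 1. Replicate 2 of ZT0 was thus closer to a ZT4 library than to the other ZT0 library. CPM values are on the TMM scale, within a strand. Log2 changes of single replicate pairs used a pseudocount of 0.5 CPM. PCR reads without molecular identifiers are not independent molecules.

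Named genes were up to 12 called each way by size (a mean of at least 20 reads, the same direction in both pairs), filled by p-value; all 20 clock genes, of which 19 are reported here; up to 4 called members of any other list; and up to 4 each way for the NTS, the ratio and the tissue difference. Genes named beyond these were chosen as examples after their values were seen. The comparison, its members and the 20 gene lists were chosen with earlier results of these data known. Alternatives were DESeq2 1.42.0, other scalings, filters, the downsampled tables, no replicate block, and leaving out each library. The fits were tested on simulated data.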

Additional observations from a re-analysis of the deposited data

How the results depend on the processing

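For the 13 genes called on the TS, DESeq2 gave 28, no low-count filter 60, the 4 libraries alone 8 and no replicate block 1. Leaving out 1 library gave 4 to 1397 genes. Removing the length trend together with replicate 1 or replicate 2 of ZT0, 2 alternatives chosen after seeing the data, gave 21 and 996. RLE size factors, library totals, a mean of at least 50 reads, removal of the length trend, the downsampled tables and leaving out overlapping genes kept the count between 9 and 14. For the NTS (25 genes) no replicate block gave 0, and leaving out 1 library 4 to 135. For the TS/NTS ratio (12 genes) no replicate block gave 0, and leaving out 1 library 0 to 239. The tissue difference stayed at 0 genes under its 5 alternatives. The difference in TS share, 0.318 points, ran from -0.644 to 1.28 when 1 library was left out, and the difference of long minus short genes, -0.164, from -0.274 to -0.073. The counts under the alternatives hold partly different genes from those of the settings used. The cause of these moves was not tested.

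Of 588 single-gene values under alternatives, 458 stayed on their side of the threshold with the same sign, 59 gained a call, 52 lost it and 19 changed sign, all in 5 uncalled clock genes near 0. Removing the length trend gave 0.054 for Clock, 0.073 for Rora, -0.017 for Bhlhe40 and -0.024 for Bhlhe41; with replicate 2 of ZT0 also left out these were 0.12, 0.012, -0.089 and -0.10, and with replicate 1 left out Rora was 0.13. Library totals gave 0.0058 for Clock and the downsampled tables -0.016 for Bhlhe41. Leaving out 1 library gave -0.044 to 0.022 for Clock, -0.093 to 0.059 for Nfil3, -0.25 to 0.098 for Rora, -0.037 to 0.10 for Bhlhe40 and -0.052 to 0.088 for Bhlhe41. The replicate block, when removed, ended the calls of the other 12 genes and left that of Npas2. Replicate 1 of ZT4 was the shallowest library. Armc12 rests on few reads at both times, 68 and 101 at ZT4 and 34 and 44 at ZT0.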

Other observations

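Xist and Tsix overlap on opposite strands and act in X inactivation in female mice. Tsix had an NTS log2 change of 0.42 (adjusted p = 0.0199 in edgeR's quasi-likelihood test), a TS log2 change of -0.67 and a ratio of 0.063 and 0.117 TS reads per NTS read at ZT4, against 0.174 and 0.198 at ZT0. The TS log2 change of Xist, whose reads the NTS of Tsix shares, was 0.35 (adjusted p = 0.191).

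Of the ratio changes on few reads, Fabp12, a fatty acid binding protein gene, had 11.2 and 7.86 TS reads per NTS read at ZT4, against 5.48 and 2.96 at ZT0 (log2 change 1.23, adjusted p = 0.0226), from 18 and 51 NTS reads at ZT4 and 54 and 102 at ZT0. Vav1, a guanine nucleotide exchange factor gene of blood cells, had 3.58 and 6.73 at ZT4, against 2.90 and 1.28 at ZT0 (1.70, adjusted p = 0.0324), from 12 and 30 NTS reads at ZT4 and 29 and 64 at ZT0. The called entry of 9930111J21Rik2 rests on 0 and 5 NTS reads at ZT4 and 12 and 22 at ZT0.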
